A study of Mus musculus with 6 samples.

Results

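Stellate cell and myofibroblast markers were described as a set of 10 named genes, Des, Lrat, Reln, Acta2, Tagln, Pdgfra, Pdgfrb, Rgs5, Hand2 and Colec11, out of 18193 genes with a probe set of their own on the array. Each gene was read from the probe set, matched to that gene symbol alone, with the highest mean signal over the 6 arrays, and its other probe sets served as a check. All groups were livers of male C57BL6/J mice, an inbred strain, which were 6 to 8 weeks old at the start. In the 2-month study 1 group ate the fast-food diet with canertinib mixed in at an estimated 80 mg/kg per day throughout, 1 the fast-food diet alone and 1 chow. In the 5-month study 1 group ate the fast-food diet and was injected intraperitoneally with 80 mg/kg canertinib, 5 days a week, in the final 5 weeks, 1 ate the fast-food diet and received PBS injections on that schedule, and 1 ate chow, for which the labels name no injection. The diet held 21% fat, 34% sucrose and 0.2% cholesterol, with glucose and fructose in the drinking water, and canertinib binds EGFR and the other ERBB kinases covalently and blocks them. RNA from 3 to 4 livers was pooled for each array and each group had 1 array, so differences within a study have no replicate check and are given without an error or a test.

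Hepatic stellate cells lie between hepatocytes and the sinusoidal endothelium and hold most of the body's vitamin A as retinyl esters in lipid droplets. After liver injury they can lose these droplets, gain a contractile actin cytoskeleton and secrete fibrillar collagen, a state called the myofibroblast. Platelet-derived growth factor drives their proliferation and migration, and transforming growth factor beta drives their matrix production. Genes of the resting cell are therefore described here apart from genes of the contractile state.

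The values are microarray signals on a linear scale, with a floor at 221.4, the 50th percentile of all values, below which signals were taken as too dim to order. Of the 10 genes, 5 (Des, Reln, Acta2, Rgs5 and Colec11) were above the floor on all 6 arrays, Lrat on 5, Tagln and Hand2 on 2, and Pdgfra and Pdgfrb on 1. Both PDGF receptor genes, which are defining markers of stellate cells and fibroblasts, were thus at or near the floor. Each of the 10 exceeded the floor somewhere, as did 13988 of 18193 genes, which formed the measured set. A log2 difference with 1 array at the floor is a bound and is called so. RNA was taken from whole liver, and hepatocyte markers such as the albumin gene Alb were above the floor on every array. Fewer cells of a type and less RNA per cell cannot be told apart in such samples.

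**Figure D1:**
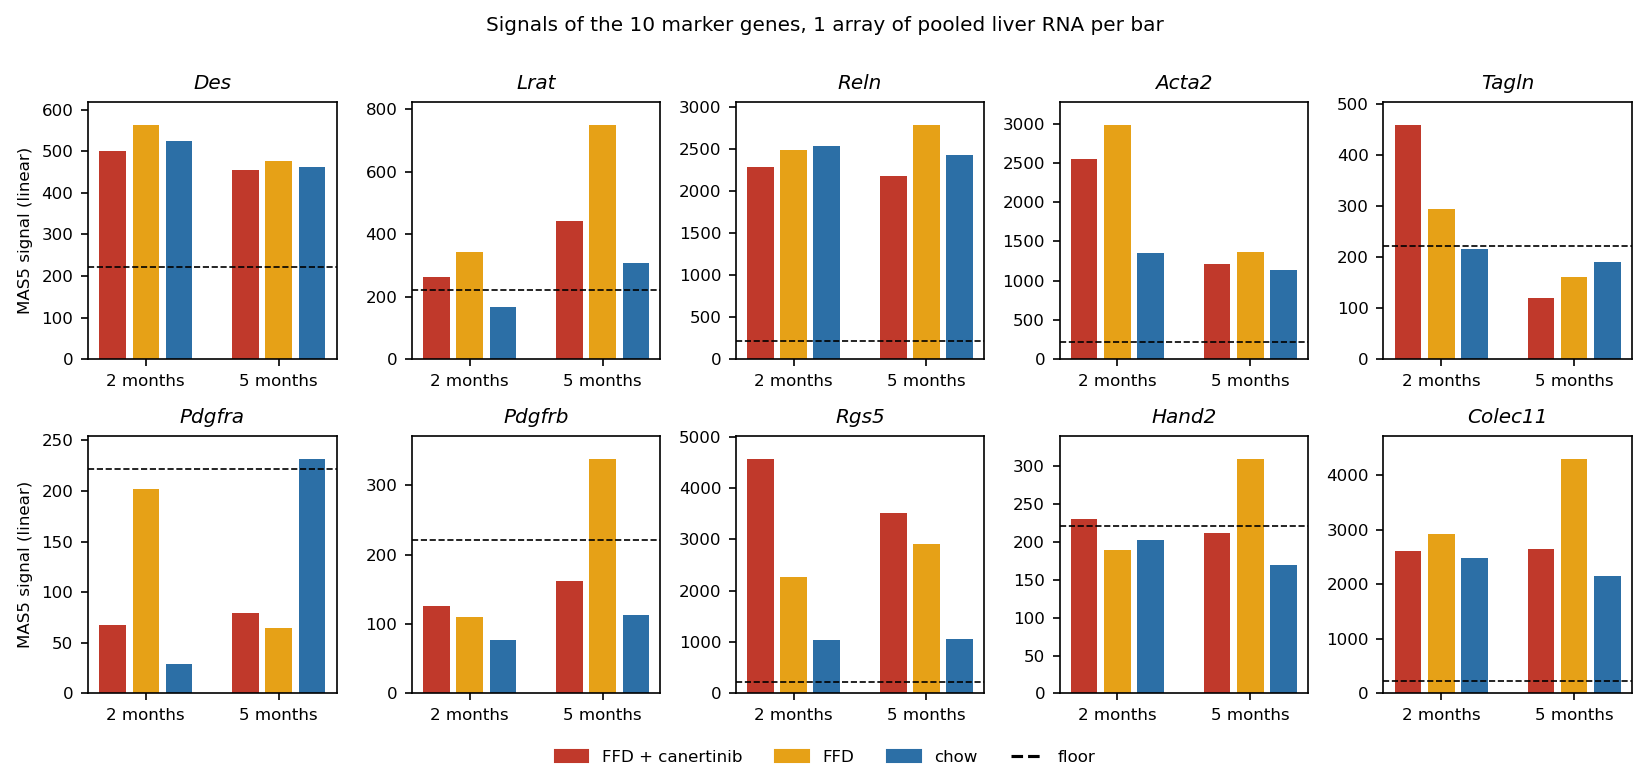
Linear MAS5 signals of the 10 marker genes, 1 bar per array of pooled liver RNA, with the fast-food diet (FFD) and canertinib, the diet alone and chow side by side in each study. The dashed line is the floor at 221.4. On the probe sets used, Rgs5 was highest with diet and canertinib in both studies, whereas Lrat and Colec11 were highest with diet alone. The other Rgs5 probe sets were lower with drug than with diet alone at 5 months.

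With the fast-food diet alone against chow, 2 of the 10 markers were at least 2-fold higher at 2 months (Acta2 and Rgs5) and 2 at 5 months (Lrat and Rgs5), and 0 were at least 2-fold lower at either time. Among all measured genes the 2-month shares were 1.98% higher and 1.55% lower, and the 5-month shares 2.72% and 1.83%. In any amount, 6 markers were higher and 1 lower at 2 months, with the other 3 at the floor on both arrays. At 5 months 8 markers were higher, 1 was lower and 1 was at the floor on both. Bounds and differences near no change are included in these counts, and the 1 lower at 5 months was Pdgfra with a bound of -0.06. The median log2 difference of the markers was 0.17 at 2 months and 0.38 at 5 months, while that of all measured genes was 0.00 at each time.

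With canertinib added to the diet, 1 marker was at least 2-fold higher at 2 months (Rgs5) and 0 at 5 months, and 0 were at least 2-fold lower at either time. Among all measured genes the 2-month shares were 3.55% higher and 3.26% lower, and the 5-month shares 2.19% and 2.73%. In any amount, 3 markers were higher and 5 lower with the drug at 2 months, and 1 was higher and 7 lower at 5 months, with the other 2 at the floor on both arrays each time. The median log2 difference was -0.06 at 2 months and -0.26 at 5 months. Diet and drug differences share the fast-food array of their study, so a signal that was high on that array by chance enters them with opposite signs.

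With diet and canertinib against chow, 2 markers were at least 2-fold higher at 2 months (Tagln and Rgs5) and 1 at 5 months (Rgs5), and 0 were at least 2-fold lower. The corresponding shares of measured genes were 3.8% higher and 2.74% lower in the 2-month study, and 2.82% and 2.72% in the 5-month study. Between the chow arrays, at 5 against 2 months, 0 of the 10 markers were at least 2-fold different in either direction, where 1.28% of all measured genes were higher and 1.32% lower.

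**Figure D2:**
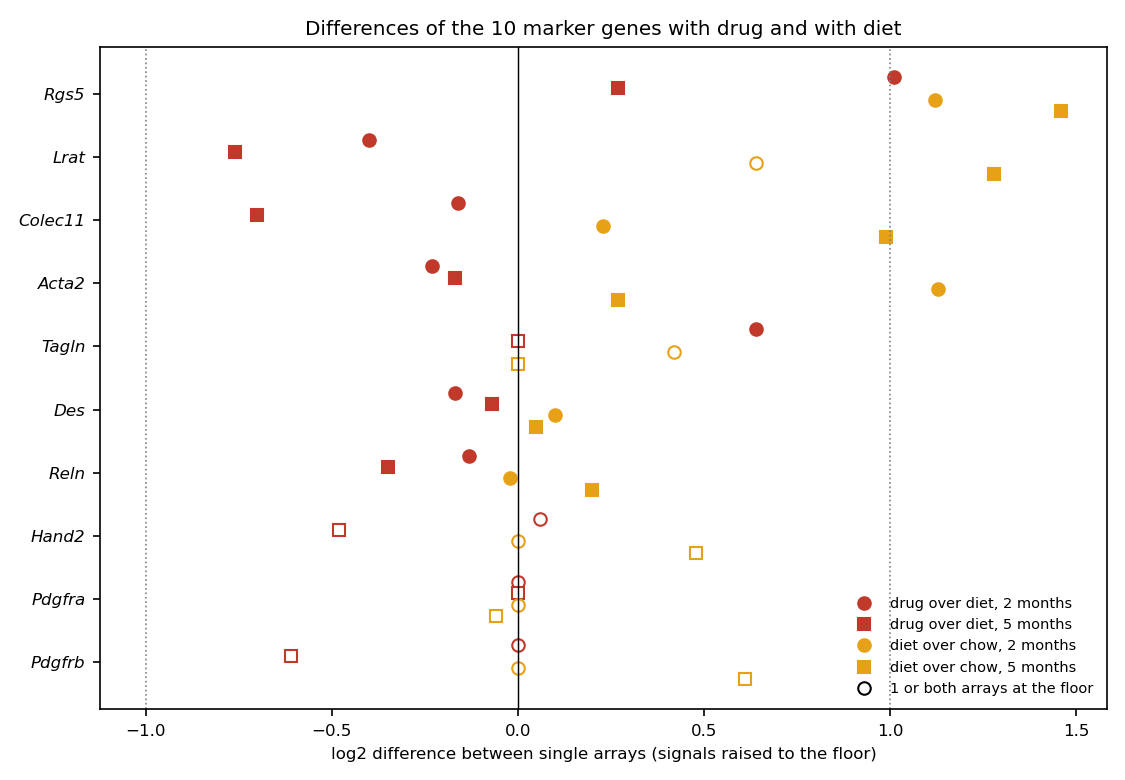
Log2 differences between single arrays for the 10 marker genes, with canertinib over the diet in red and the diet over chow in yellow, at 2 months (circles) and 5 months (squares). Open symbols have 1 or both arrays at the floor and dotted lines mark 2-fold. Rgs5, on its chosen probe set, is the gene that lies right of 0 in all 4 comparisons with closed symbols.

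Rgs5 (chr1:169655501-169695813, RefSeq GRCm38.p6), which encodes a GTPase-activating protein that dampens G protein signalling and marks pericytes and stellate cells, differed most. It had a signal of 4562 with diet and canertinib, 2269 with diet and 1044 with chow at 2 months. At 5 months it had 3514 with diet and canertinib, 2915 with diet and 1059 with chow. On the chosen probe set the order was the same in both studies, and all 4 fast-food arrays were above both chow arrays, which differed by 0.02 on the log2 scale. Rgs5 was 2.17-fold and 2.75-fold higher with diet than with chow at 2 and 5 months. Canertinib over the diet added a 2.01-fold and a 1.21-fold difference, and the drug-treated liver was 4.37-fold and 3.32-fold higher than chow.

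A limma fit with terms for treatment and study was made across all measured genes of the 6 arrays. It takes the studies as repeats, although they gave the drug by another route and for another time, and has 2 residual degrees of freedom. The time on the diet differed between the studies as well. At 5 months the labels name injections for the fast-food groups and none for chow, so diet and injection cannot be told apart there. Rgs5 was higher with diet and canertinib than with chow by 1.93 ± 0.20 (log2, SE), with an adjusted p of 0.0277, and it was the 1 marker of 10 called in that contrast, where 0.558% of genes were called higher and 0.207% lower. Leaving out any 1 array leaves 1 residual degree of freedom, under which limma called 0 of 13988 genes and Rgs5 had an adjusted p between 0.336 and 0.529. The call was also lost when probe sets were averaged for each gene, where limma gave Rgs5 0.99 ± 0.24 and an adjusted p of 0.208, and without the variance trend, where the adjusted p was 0.0707. For diet over chow Rgs5 had 1.29 ± 0.20 and an adjusted p of 0.169 in the limma fit, and for drug over diet 0.64 ± 0.20 and 0.238. At an unadjusted p under 0.05, limma gave 4 of 10 markers with diet (Lrat, Acta2, Rgs5 and Colec11), where 9.87% of genes passed, 1 with drug over diet (Rgs5), where 14.8% passed, and 1 with drug and diet (Rgs5), where 15.6% passed. At an adjusted p under 0.05, limma called 0 of the 10 markers with diet, against 0.0286% of genes higher and 0.0% lower, and 0 with drug over diet, against 0.407% higher and 0.307% lower.

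The probe sets of Rgs5 did not all give this size. All 4 were higher with diet than with chow in both studies. Probe set 1420941_at had 533 with diet and canertinib, 389 with diet and 36.2 with chow at 2 months, and 279, 334.5 and 34.0 at 5 months. Both chow arrays were below the floor on it, so the diet difference is a bound of 0.81 at 2 months and 0.60 at 5 months. Probe set 1420942_s_at had log2 differences with diet of 0.37 at 2 months and 1.60 at 5 months, that at 5 months being a bound, and 1420940_x_at had 0.03 and 0.46. With canertinib over the diet all 4 were higher at 2 months, but at 5 months the chosen probe set alone was higher, at 0.27, and the other three had -0.26, -0.50 and -0.52. Averaged over its probe sets, Rgs5 had log2 differences of 1.21 and 0.77 with diet and canertinib over chow at 2 and 5 months. For drug over diet the average was 0.63 at 2 months and -0.25 at 5 months, so the 5-month direction depended on the probe set.

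**Figure D3:**
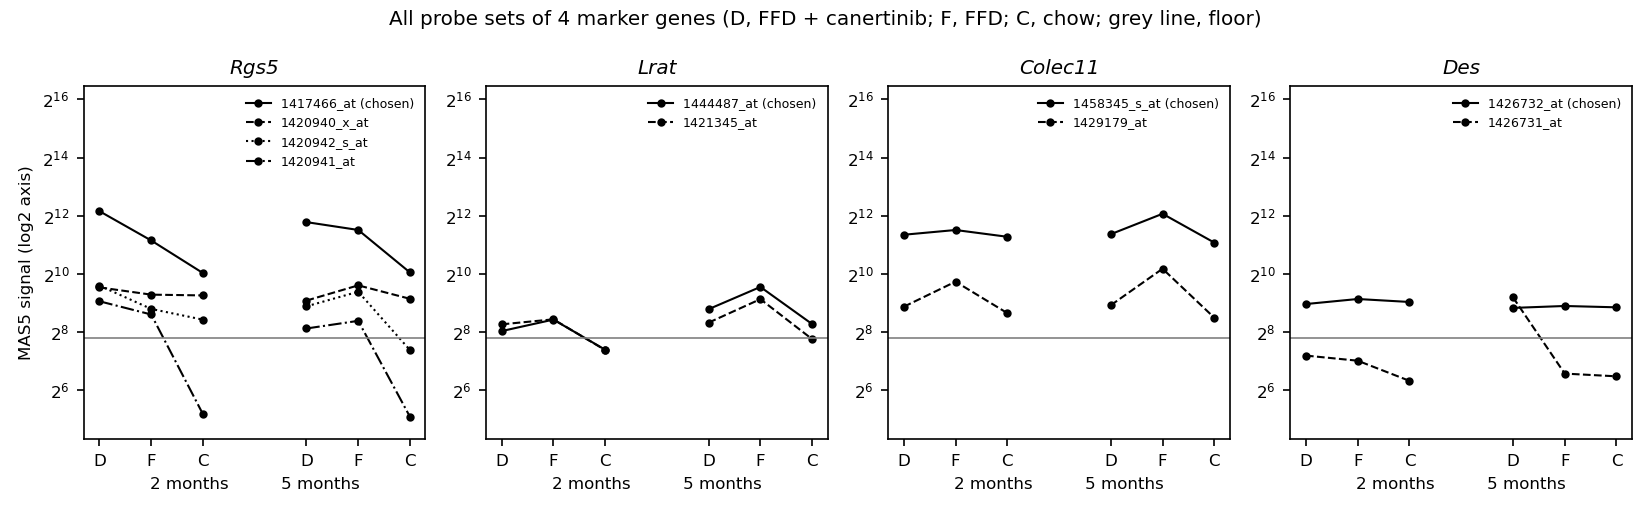
MAS5 signals on a log2 axis for every probe set of Rgs5, Lrat, Colec11 and Des, with diet and canertinib (D), diet (F) and chow (C) in each study. The grey line is the floor, and lines join the arrays of 1 study. The probe sets of Lrat and of Colec11 peak with diet alone in both studies, and the second Des probe set is above the floor on 1 array.

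Lrat (chr3:82892582-82903974) encodes lecithin retinol acyltransferase, which makes the retinyl esters that stellate cells store. Its signal was 262 with diet and canertinib, 345 with diet and 168 with chow at 2 months, the last below the floor. At 5 months it was 442 with diet and canertinib, 750.2 with diet and 309.8 with chow. The diet signal exceeded chow at least 1.56-fold in the 2-month study and 2.42-fold in the 5-month study, and Lrat had log2 differences of -0.40 and -0.76 with canertinib over the diet. The signals with drug lay between those of diet and chow in both studies. The other Lrat probe set gave 0.65, a bound, and 1.34, also a bound, with diet and -0.17 and -0.81 with drug. In the limma fit Lrat had 0.96 ± 0.24 with diet and an adjusted p of 0.329, and -0.58 ± 0.24 with drug and an adjusted p of 0.35.

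Colec11 (chr12:28594172-28623458) encodes collectin 11, a secreted lectin that starts the lectin pathway of complement. It had 2601 with diet and canertinib, 2913 with diet and 2479 with chow at 2 months. It had 2636.5 with diet and canertinib, 4288 with diet and 2156.5 with chow at 5 months. Diet alone was the highest array of each study, by a log2 difference from chow of 0.23 at 2 months and 0.99 at 5 months. Drug over diet was -0.16 and -0.70. A dimmer probe set, 1429179_at, gave larger differences of the same sign, 1.08 and 1.68 with diet and -0.86 and -1.25 with drug. The limma fit gave Colec11 0.61 ± 0.20 with diet and an adjusted p of 0.43, and -0.43 ± 0.20 with drug and an adjusted p of 0.415.

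Reln and Des differed little on their chosen probe sets. Reln encodes reelin, a secreted glycoprotein that in liver is made by stellate cells, and its signal was 2282 with diet and canertinib, 2492.5 with diet and 2529 with chow at 2 months, and 2181, 2784 and 2426 at 5 months. Its whole range over the 6 arrays was 0.35 on the log2 scale. Des encodes desmin, the intermediate filament protein by which rodent stellate cells are often stained, and it had 499 with diet and canertinib, 563 with diet and 524 with chow at 2 months, and 455, 477 and 462 at 5 months. Its range was 0.31, so these genes, both well above the floor, kept within a narrower span than Rgs5 with 2.13 or Lrat with 1.76. The second Des probe set had 586 with diet and canertinib at 5 months, against 95.2 with diet and 89.2 with chow, and 80.1 to 146 on the arrays of the 2-month study. Hand2, a transcription factor gene of stellate cells, had 231 with diet and canertinib, 189.6 with diet and 202 with chow at 2 months, and 211.5, 309 and 169 at 5 months. At 5 months it was at least 1.40-fold higher with diet alone than on either other array, and its other 2 probe sets were below the floor on all arrays.

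Of the contractile markers, Acta2 was at least 2-fold higher with diet at 2 months and Tagln was not. Acta2 (chr19:34240336-34255585), which encodes smooth muscle actin and is the usual marker of myofibroblasts and of vascular smooth muscle, had 2552 with diet and canertinib, 2983 with diet and 1359 with chow at 2 months. At 5 months it had 1214 with diet and canertinib, 1367 with diet and 1131 with chow. Diet exceeded chow 2.19-fold in the 2-month study and 1.21-fold in the 5-month study, and the 5-month fast-food array lay at the level of the 2-month chow array. Drug over diet was -0.23 and -0.17, so Acta2 with drug was 1.88-fold and 1.07-fold higher than with chow. In the limma fit the diet gave 0.70 ± 0.24 and an adjusted p of 0.441. The difference between the times was not tested. The other 2 probe sets of Acta2 were below the floor on all arrays, so the value rests on 1 probe set, 1416454_s_at. With the _s_at, _x_at and _a_at probe sets left out, Acta2 was not among the measured genes.

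Tagln encodes transgelin, an actin-binding protein of smooth muscle and myofibroblasts. It had 459 with diet and canertinib, 296 with diet and 215.5 with chow at 2 months, the last just below the floor. At 5 months all arrays were below the floor, at 120.3 with diet and canertinib, 162 with diet and 191 with chow. At 2 months its diet over chow difference was a bound of 0.42 on the log2 scale. Tagln was at least 2.07-fold higher with diet and canertinib than with chow and 1.55-fold higher than with diet alone.

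The promoters of the 4 markers with the largest differences with diet are shown, a choice made after the values were seen. Acta2 is a classic target of serum response factor, which binds CArG boxes, and these boxes were searched for in each promoter. A part of serum response factor in the diet differences was not tested. Each promoter runs 5′ to 3′ from 250 bases before to 50 after an annotated RefSeq start (GRCm38.p6), at chr19:34255324-34255623 on the minus strand for Acta2, chr3:82903925-82904224 on the minus strand for Lrat, chr12:28623281-28623580 on the minus strand for Colec11 and chr1:169655251-169655550 on the plus strand for Rgs5. Capitals mark a CArG box in which 1 of the 6 central bases is not A or T.
Acta2: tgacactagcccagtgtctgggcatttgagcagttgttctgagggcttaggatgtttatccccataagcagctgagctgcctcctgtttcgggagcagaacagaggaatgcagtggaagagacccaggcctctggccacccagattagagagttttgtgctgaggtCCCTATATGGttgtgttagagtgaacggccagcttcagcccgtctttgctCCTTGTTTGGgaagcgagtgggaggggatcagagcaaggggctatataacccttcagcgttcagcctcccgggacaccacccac
Lrat: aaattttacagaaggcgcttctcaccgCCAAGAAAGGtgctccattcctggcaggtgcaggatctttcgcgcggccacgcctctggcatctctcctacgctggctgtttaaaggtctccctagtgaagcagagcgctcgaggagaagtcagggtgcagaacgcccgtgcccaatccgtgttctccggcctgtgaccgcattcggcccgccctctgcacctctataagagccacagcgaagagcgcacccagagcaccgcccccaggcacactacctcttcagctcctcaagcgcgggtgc
Colec11: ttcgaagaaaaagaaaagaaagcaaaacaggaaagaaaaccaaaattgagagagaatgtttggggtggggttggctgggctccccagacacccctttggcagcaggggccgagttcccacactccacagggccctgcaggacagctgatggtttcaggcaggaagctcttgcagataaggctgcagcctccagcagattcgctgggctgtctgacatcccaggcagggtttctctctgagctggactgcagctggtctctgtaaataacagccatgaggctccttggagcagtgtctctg
Rgs5: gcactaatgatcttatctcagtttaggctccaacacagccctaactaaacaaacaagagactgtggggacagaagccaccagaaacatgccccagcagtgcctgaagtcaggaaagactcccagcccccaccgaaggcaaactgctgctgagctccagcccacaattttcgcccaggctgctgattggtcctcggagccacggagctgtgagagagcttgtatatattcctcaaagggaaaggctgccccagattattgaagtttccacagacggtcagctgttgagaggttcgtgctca

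An exact CArG box, searched on both strands, was found in 0 of the 8 marker promoters in the RefSeq table and in 1.63% of all 32851 promoter windows. The looser form, chosen after the sequences were seen, was found in 2 of the 8 (Acta2 and Lrat) and in 8.5% of all windows. In Acta2 it was present at 84 and 34 bases before the start used. For Acta2 and Colec11 that start lies within the gene span given above and not at its end, so another annotated start would give other distances. These matches describe letters in the windows and are not evidence of binding.

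PDGF receptors were dim. Pdgfrb, which encodes the receptor through which PDGF acts on activated stellate cells, was above the floor on the 5-month fast-food array alone. Its signal was 126 with diet and canertinib, 109.8 with diet and 76.3 with chow at 2 months, and 161.5, 337 and 113 at 5 months. It was at least 1.52-fold higher with diet at 5 months than with either other array. Its other probe set was at 45.8 or below on every array. Pdgfra, which encodes the receptor of fibroblasts and quiescent stellate cells, had 68.0 with diet and canertinib, 202 with diet and 29.0 with chow at 2 months, and 79.2, 64.2 and 231 at 5 months. Only the 5-month chow array was above the floor, its 3 probe sets gave no common order, and nothing can be said of its level. Among PDGF ligands 3 of 4 were measured. Pdgfa had 309 with diet and canertinib, 576 with diet and 481 with chow at 2 months, and 750.4, 656 and 435 at 5 months. Log2 differences with drug were -0.90 and 0.19 for Pdgfa, -0.27 and -0.89 for Pdgfb and 0.20 and 0.21 for Pdgfc, and 0 of the 3 were at least 2-fold different.

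Genes of the same cells and pathways, from lists chosen with earlier results of these data known, were set beside the markers. Of 22 other stellate cell genes 18 were measured, with medians of 0.16 and 0.43 with diet and -0.03 and -0.38 with drug. At 2-fold or more, 0 and then 4 were higher with diet and 1 and then 0 lower, and with drug 2 and then 1 were higher and 1 and then 4 lower. Among all measured genes 1.98% and then 2.72% were higher with diet and 1.55% and then 1.83% lower. With drug 3.55% and then 2.19% were higher and 3.26% and then 2.73% lower. These shares stand beside the counts of the lists below as well. Tcf21, a transcription factor gene that marks stellate cells and fibroblasts, had 256 with diet and canertinib, 463 with diet and 419 with chow at 2 months, and 256, 998 and 481 at 5 months. Dpt, which encodes the matrix protein dermatopontin, had 170.0 with diet and canertinib, 543 with diet and 305 with chow at 2 months, and 239.8, 731 and 278 at 5 months. For both genes the fast-food array was the highest of each study, and drug over diet was -0.85 and -1.96 for Tcf21 and -1.29, a bound, and -1.61 for Dpt. Steap4, a metalloreductase gene that hepatocytes also express, differed from these, with 8899.9 with diet and canertinib, 2615 with diet and 2186 with chow at 2 months, and 10965.5, 4258 and 2097 at 5 months. Steap4 was called by limma with drug over diet, at 1.57 ± 0.20 and an adjusted p of 0.0499, and with drug and diet over chow, at 2.21 ± 0.20 and 0.0187.

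Smooth muscle contractile genes had medians of 0.35 and 0.15 with diet and -0.14 and -0.09 with drug over 12 measured genes of 15. At 2-fold or more, 2 and then 1 were higher with diet and 0 lower, and with drug 0 were higher and 0 and then 1 lower. The tropomyosin gene Tpm1 was higher with diet by 1.73, a bound, and 1.23, and Tpm2 by 1.16 and 0.76. With drug Tpm2 had -0.47 and -1.58, and Tgfb1i1, a focal adhesion gene, had 0.49 and -0.57. Myh11 and Cnn1, defining genes of mature smooth muscle, were below the floor on all 6 arrays.

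Among retinoid genes, 10 of 12 matched genes were measured, with medians of 0.36 and -0.01 with diet and -0.10 and 0.03 with drug. At 2-fold or more, 2 and then 3 were higher with diet and 0 lower, and with drug 1 and then 3 were higher and 1 and then 0 lower. Rarres1, a retinoic acid responder gene, had 3827 with diet and canertinib, 7132 with diet and 3389 with chow at 2 months, and 3775, 6650.0 and 4304 at 5 months, the same order of diet above drug as Lrat. Pnpla3, a lipid droplet hydrolase gene that hepatocytes also express, had 1.11 and -0.54 with diet and -0.58 and 1.02 with drug. Lpl, the lipoprotein lipase gene, had 6360.1 with diet and canertinib, 1991 with diet and 1371 with chow at 2 months, and 12323, 3881 and 968 at 5 months. Lpl was called by limma with drug and diet over chow, at 2.94 ± 0.38 and an adjusted p of 0.0488. Hepatocytes and macrophages can also express it.

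TGF-beta ligands, receptors and targets had medians of 0.07 and 0.17 with diet and 0.01 and -0.33 with drug over 14 measured genes of 18 matched. At 2-fold or more, 0 and then 3 were higher with diet and 0 lower, and with drug 0 were higher and 1 and then 0 lower. The 3 were the named genes Tgfbr2, the type 2 receptor, with 1.40, Ccn2, a matricellular target, with 1.73, and Tgfbi, an extracellular matrix target, with 1.35. Their drug over diet values at 5 months were -0.73, -0.65 and -0.58. Fibrillar matrix genes, a list that also holds other matrix and matrix remodelling genes, had medians of 0.58 and 0.89 with diet and -0.36 and -0.78 with drug over 20 measured genes. The cells that made these transcripts cannot be told from whole liver. At 2-fold or more, 4 and then 8 of the list were higher with diet and 0 lower. With drug 1 was higher at each time, the fibronectin gene Fn1 with 1.16 and 1.11, and 4 and then 5 were lower. Col3a1, for type III collagen, had 761 with diet and canertinib, 3035 with diet and 863 with chow at 2 months, and 824, 4072 and 589.7 at 5 months, and was the 1 matrix gene called by limma with drug over diet, at -2.15 ± 0.26 with an adjusted p of 0.044. Col1a1 and Sparc were also named by the rule, with drug over diet values of -1.54 and -2.27, the second a bound, for Col1a1 and -1.10 and -2.11 for Sparc. Medians of the matrix list were thus larger in size than those of the stellate and contractile lists, positive with diet and negative with drug. This difference was not tested. Signals at the floor pull a median toward no difference, and 15 of 20 matrix genes but 5 of 10 markers were above the floor on all arrays.

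**Figure D4:**
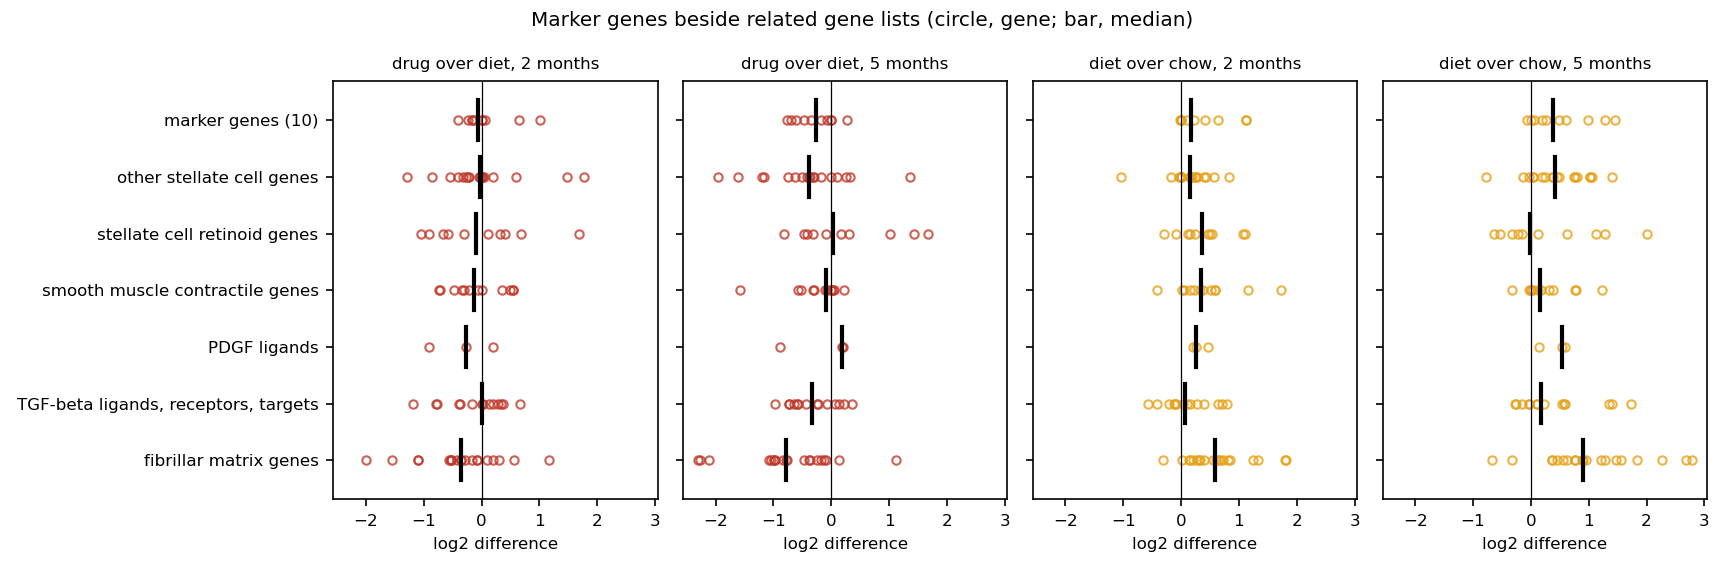
Log2 differences of measured genes (circles) in 7 gene lists, with the median as a bar, for drug over diet and diet over chow at both times. The 10 markers had medians of -0.06 and -0.26 with drug and 0.17 and 0.38 with diet, and fibrillar matrix genes had -0.36 and -0.78 and 0.58 and 0.89.

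Over the 6 arrays, the genes whose pattern was most like that of Rgs5 were Lcmt2 with a Pearson r of 0.993, Fabp4 with 0.984, C1qc with 0.982, Fcgr3 with 0.98 and Csf1r with 0.978, among 2419 genes above the floor on all arrays with a range of at least 1 on the log2 scale. Lcmt2 encodes a tRNA-modifying methyltransferase, Fabp4 a fatty acid binding protein of adipocytes, macrophages and endothelium, and C1qc, Fcgr3 and Csf1r are macrophage genes. The 6 points share diet and drug groups and processing, and with so many genes ranked, high values arise easily, so r is a description with no p. Of 9 Kupffer cell and macrophage markers, all 9 were higher with diet and canertinib than with chow in both studies, with medians of 1.51 and 1.28. Of all 13988 measured genes 6318 and then 6053 were higher in that comparison, and 6764 and then 6774 lower. With diet over chow 9 and then 7 were higher and 0 and then 2 lower, with medians of 0.97 and 0.76. With drug over diet 8 and then 7 were higher and 1 and then 2 lower, with medians of 0.37 and 0.33. Adgre1, Cd68 and C1qa were among those lower with drug, at -0.58 for Adgre1 at 2 months and at -0.40 for Cd68 and -0.18 for C1qa at 5 months. The 9 signals, in which the brighter genes weigh most, summed to 35330 with diet and canertinib, 26589 with diet and 11185 with chow at 2 months, and to 36405, 31631 and 12115 at 5 months, and 8 or 9 of 9 were above the floor on each array. For 12 sinusoidal endothelial markers the sums were 16081, 16846 and 12693 at 2 months and 13306, 15959 and 11656 at 5 months, and 7 vascular smooth muscle and pericyte markers had 5918, 5509 and 5339 and then 5180, 5181 and 4259. The part of these cells in the Rgs5 signal was not tested.

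**Figure D5:**
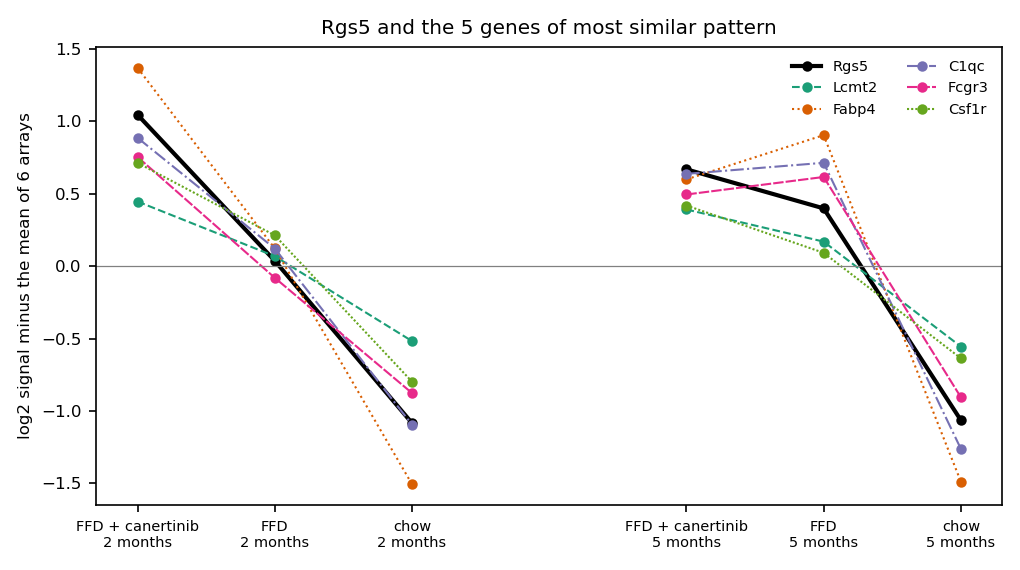
Log2 signal minus the mean over the 6 arrays for Rgs5 (thick black line) and the 5 genes of highest Pearson r with it, with diet and canertinib, diet and chow from left to right in each study. All 6 genes were lowest on the chow arrays, and r was between 0.978 and 0.993.

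Facts of the arrays that touch these results are few. RNA quality was read from the actin controls, as the log2 signal of the 3' over the 5' probe set. It was 1.19 and 1.12 with drug, 0.85 and 0.98 with diet and 0.94 and 0.85 with chow at 2 and 5 months. Within each study it was thus highest where the chosen Rgs5 probe set was highest. The same measure for the Gapdh controls was -0.20 and -0.14 with drug, -0.30 and -0.22 with diet and -0.18 and -0.09 with chow. It was highest with chow, where the chosen Rgs5 probe set was lowest. Between 84.3% and 86.6% of measured genes were above the floor on each array. The 7 hepatocyte markers matched, all above the floor on every array, summed to 443060 with drug, 351863 with diet and 300597 with chow at 2 months, and to 351763, 261812 and 330081 at 5 months. At 5 months the hepatocyte sum was lowest on the fast-food array. The part of RNA quality or of cell composition in the marker values was not tested.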

How the data were processed

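Liver RNA of 6 groups was measured on 1 Affymetrix whole-genome mouse array each, with 3 to 4 livers pooled per array per the labels. The deposited intensity values are MAS5 signals on a linear scale per the submitters' processing notes, with a version not given in the sources used here. From the values, the authors had scaled each array to a mean of 500.0 after trimming 2% of probe sets at either end. Arrays have no read depth, and their number limits the precision.

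Of 45101 probe sets, 34945 had 1 gene symbol in the platform annotation, 932 had several and 9160 had none, and 64 were control probe sets, which were left out. Each of 18193 genes was read from its brightest probe set, signals were raised to a floor of 221.4 and log2 transformed, and 13988 genes were measured. Differences are between single arrays, with 2-fold as the threshold for counts. A limma fit (3.58.1, R 4.3.3) on all 6 arrays had terms for treatment and study, a variance trend and Benjamini-Hochberg adjustment over the measured genes. It was run on simulated data with equal noise for all genes and the same change in both studies. Such data hold no floor, variance trend or disagreement between studies, so they do not check the calls on these points. The p-values of the fit rest on how far the treatment differences disagreed between the studies, moderated over all measured genes. That disagreement mixes route and duration of the drug, time on the diet and injections with array noise, and variation between animals was not measured. The alternatives were other floors, normalizations, probe set rules, folds, no variance trend and arrays left out.

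Members, lists and tests were chosen with earlier results of these data known. Named were all 10 members, the 3 genes of each list with the largest mean absolute difference and the 5 genes most like Rgs5. Genes named beyond this rule, Myh11, Cnn1, Alb, Fn1, Msln, Wt1, Gpm6a, Mfap4, Adgre1 and Cd68, were chosen after their values were seen. Sequences are from RefSeq, GRCm38.p6, whose promoter table matched 8 of the 10 members. Python 3.11.15 with NumPy 2.4.6, pandas 2.3.3, SciPy 1.17.1 and matplotlib 3.10.9 was used.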

Additional observations from a re-analysis of the deposited data

Results flagged for a closer look

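Probe sets of the markers outside those used for the comparisons gave signals that the comparisons do not hold. Des probe set 1426731_at was at 586 with diet and canertinib at 5 months and below the floor on the other 5 arrays, a bound of 1.40 on the log2 scale over diet and also of 1.40 over chow. The chosen Des probe set had -0.07 and -0.02 in these comparisons. Colec11 probe set 1429179_at was above 2-fold where the chosen one was not, with 1.08 for diet over chow at 2 months, 1.68 for diet over chow at 5 months and -1.25 for canertinib over the diet at 5 months, and both probe sets had the same sign throughout. No group held more than 1 array, so no array was tested as an outlier, and of the 10 markers 0 were at least 2-fold different in opposite directions at the 2 times.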

How the results depend on the processing

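The labels number no replicates, so no fit with a replicate block was made, and the study term of the limma fit is what pairs the arrays. Over the alternatives, 545 of 567 values of single markers moved by less than 1.5-fold, 22 moved further and 0 reversed at 2-fold or more. Markers that a setting left unmeasured have no value among the 567. Pairs of arrays that stayed at the floor count as unmoved, and a reversal was scored only where the main value was at least 2-fold. Each count below has, in parentheses, the share of all genes tested that passed under the same setting. With no floor, 4 markers were at least 2-fold higher with diet at 2 months (7.34%), 1 was lower with diet at 5 months (7.07%), 1 was lower with drug at 2 months (8.53%) and at 5 months (9.47%), 1 was lower with drug and diet at 5 months (9.14%) and 1 was higher between the chow arrays (6.72%). The median with drug and diet at 2 months was then 0.68. With means over probe sets, 0 were higher with diet (1.16%) or with drug (2.22%) at 2 months and 0 with drug and diet at 5 months (1.76%). Median centring left 0 higher with drug at 2 months (2.76%). A floor at the 40th percentile gave 1 lower with drug at 5 months (3.92%), as did leaving out the _s_at, _x_at and _a_at probe sets (2.67%). With drug and diet at 2 months, 1 was higher with a floor at the 60th percentile (3.01%), at 3-fold (1.05%) and with genes above the floor on all arrays (3.35%), and the last gave 1 with diet at 5 months (2.39%). At 1.5-fold, 4 were higher with diet at 5 months (8.45%), 2 higher with drug at 2 months (10.9%) and 3 lower with drug at 5 months (9.26%). At 3-fold, 0 were higher with diet at 2 months (0.458%) or 5 months (0.765%) or with drug at 2 months (0.915%).

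Genes called by limma numbered 4 with diet, 100 with drug and 107 with drug and diet. They became 22 and 152 with no floor for diet and drug, 134, 384 and 400 with genes above the floor on all arrays, 0, 7 and 25 with means over probe sets, and 0, 26 and 43 with no variance trend. For diet they were 0 with the 40th percentile floor, 1 with quantile, 0 with loess and 2 with median normalization. Leaving out any 1 array gave 0 to 0 genes in each contrast. Rgs5 with drug and diet was called under 8 of 10 other settings, with adjusted p between 0.00115 and 0.208, and not with means over probe sets or no variance trend, each with 0 markers called. With diet, 1 marker (Rgs5, adjusted p = 0.0209) was called among genes above the floor on all arrays. Other markers were called in 0 settings. The causes were not tested. For dim genes the floor limits what can be read.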

Other observations

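Markers of other cells that liver RNA can hold gave further values. Of the portal fibroblast and mesothelial genes 6 of 10 were measured, and their summed signals were 7043 with diet and canertinib, 4688 with diet and 3586 with chow at 2 months, and 7806, 7116 and 4318 at 5 months. Gas6, a ligand of the TAM receptor kinases, carried much of the sums, with 4152 with diet and canertinib, 2779.5 with diet and 1403 with chow at 2 months, and 5477, 4181 and 1655 at 5 months, and limma called it with drug and diet over chow at 1.65 ± 0.14 with an adjusted p of 0.0161. Fbln2, for the matrix protein fibulin 2, had drug over diet values of -0.47, a bound, and -1.39, a bound, and Upk1b, a mesothelial marker, had 1.76 and 0.43. Msln, Wt1, Gpm6a and Mfap4 were at the floor on all arrays. Among vascular genes, Kcnj8 and Abcc9, the subunits of the pericyte potassium channel, had drug over diet values of 0.65 and 0.50 and of 0.90 and 0.09, and Cspg4 had 0.22 and -0.20.

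Of the endothelial markers, Lyve1 had drug over diet values of 1.13 and 0.09, Cdh5 -0.71 and -0.34 and Fcgr2b -1.10 and -0.88. The Kupffer cell genes Cd5l and C1qa had diet over chow values of 1.79 and 2.27 and of 2.16 and 2.50, and Marco had drug over diet values of 2.67 and 1.92. In hepatocyte markers Hnf4a had 0.67 and 1.03, Tat 0.82 and 0.62 and Pck1 0.94 and 0.07 with drug over diet. Of 5 matched cholangiocyte genes 4 were measured, and with drug over diet Epcam had 0.97 and 0.71, Sox9 0.26 and 0.00, and Krt19 was at the floor at 2 months and had a bound of 0.65 at 5 months. These are values of single arrays, and limma called 1 of the 9 macrophage markers with diet (C1qa, 2.33 ± 0.15, adjusted p = 0.0385) and 4 with drug and diet over chow. Cspg4, Kcnj8, Abcc9, and the endothelial, cholangiocyte and hepatocyte markers were called in 0 contrasts of the fit.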
